A study of Mus musculus with 93 samples.

Results

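Cytosolic ribosomal proteins are the protein parts of the cytoplasmic ribosome. Their genes were described in granulosa cells and oocytes of wild type mice and of mice labelled as knockouts of Esr2, the gene for estrogen receptor beta. The genes were chosen by symbol: Rpl or Rps followed by a number, with the stalk genes Rplp0, Rplp1 and Rplp2 and with Rpsa, and without rows named as pseudogenes and the S6 kinases. A gene also needed a mean of at least 1 CPM (counts scaled to a library total of 1000000) in any of the 12 groups. All 56 symbols that matched also passed the level, out of 24047 genes in the count tables. By symbol alone, 34 were assigned to the large subunit and 22 to the small subunit. The lowest of them by its highest group mean was Rpl32l, with 2.61 CPM in wild type granulosa cells at 7 weeks. The annotation lists Rpl32l as a processed pseudogene, and it overlaps Map7 on the same strand. It is among the 34, as is the paralog Rpl7l1, so the 34 are not all known parts of the ribosome.

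The 93 libraries were whole-transcript Smart-seq2 libraries made from total RNA. From granulosa cells there were 7 wild type and 7 knockout libraries of 4-week-old mice, 5 of each genotype of 7-week-old mice, and 12 wild type and 6 knockout libraries of 6-month-old mice. From oocytes there were 12 wild type and 7 knockout libraries of the youngest mice, 5 wild type and 12 knockout at 7 weeks, and 11 wild type and 4 knockout of the oldest mice. The allele and the strain are not given in the sources used here. The labels do not say which libraries came from separate animals, so p-values measure the spread between these libraries, which may be technical. Each cell type and age was deposited as its own count table, so an age or a cell type cannot be told apart from its table.

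Total counts ran from 702731 to 7751961 per library and 3 granulosa libraries had under 1000000: library 1 of each genotype at 7 weeks and wild type library 12 at 6 months. Esr2 followed the labels: it was at 5.69 to 39.6 CPM in wild type granulosa cells and at 0 in the knockout ones, and at 39.3 to 112 CPM in wild type oocytes against 0 to 0.598 CPM in knockout oocytes. All 13 granulosa markers averaged at least 1 CPM in granulosa libraries, where they summed to 1876 to 6939 CPM. In oocytes they summed to 39.9 to 438 CPM, with Fshr, Foxl2, Inhbb, Amh, Amhr2 and Kctd14 at 0 in every library. The 13 oocyte markers summed to 12513 to 41674 CPM in oocytes and to 1.42 to 847 CPM in granulosa libraries. Wild type granulosa libraries 6 at 4 weeks and 3, 4 and 5 at 7 weeks held over 100 CPM of oocyte markers, and wild type oocyte libraries 11 at 4 weeks and 2 at 7 weeks held over 250 CPM of granulosa markers. In granulosa libraries luteal markers summed to 2334 to 14441 CPM and immune markers to 205 to 4410 CPM.

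A ribosome has a small subunit, which reads the messenger RNA, and a large subunit, which joins the amino acids. Most ribosomal protein genes are transcribed at high levels in dividing cells. Their messengers start with a run of pyrimidines, the terminal oligopyrimidine (TOP) motif, through which mTOR and the RNA-binding protein LARP1 set their translation. Growing oocytes build up ribosomes that later serve the early embryo, while granulosa cells divide around them. Several of the genes have a second copy with a similar protein, among them Rpl39 and Rpl39l, Rpl7 and Rpl7l1, and Rps27 and Rps27l.

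Runs of pyrimidines at the start sites of the genes were longer in the median than at those of other genes, and varied between members. RefSeq (GRCm38.p6) gave 49 start sites for 42 of the 56 genes, and the other 14 had no entry. In a window of 15 bases before and 15 bases after the start, the longest run of C and T had a median of 7 bases (range 2 to 19) against 4 over 32802 start sites of other genes. The letters CTTTC occurred on the gene's strand in 12 of 49 windows, or 24.49%, and in 4.018% of the windows of other genes. On the opposite strand the values were 4.082% and 3.597%. These are matches of letters and not mapped starts in these cells. The windows below belong to pairs of copies and to genes the results turn on, and capitals mark the longest run of C and T.
Rps27, chr3:90213634-90213663, minus strand: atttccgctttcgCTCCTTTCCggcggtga
Rps27l, chr9:66946071-66946100, plus strand: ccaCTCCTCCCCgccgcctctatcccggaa
Rpl39, chrX:37085208-37085237, minus strand: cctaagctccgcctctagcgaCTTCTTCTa
Rpl39l, chr16:10170213-10170242, plus strand: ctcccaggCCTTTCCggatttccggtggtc
Rpl34, chr3:130730323-130730352, minus strand: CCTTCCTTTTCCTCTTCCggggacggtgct
Rplp0, chr5:115559452-115559481, plus strand: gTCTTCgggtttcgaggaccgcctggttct
Rps2, chr17:24720048-24720077, plus strand: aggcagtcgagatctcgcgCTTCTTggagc
Rpsa, chr9:120127751-120127780, plus strand: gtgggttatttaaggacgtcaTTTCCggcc
Rps3a1, chr3:86142654-86142683, minus strand: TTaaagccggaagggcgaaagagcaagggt
The longest run lay across the start in Rps27 and Rpl34, ended just before it in Rpl39l, and lay apart from it in the other genes shown. Rpl34 and Rps27l each have another listed start site, and at that of Rpl34 the longest run was 8 bases and lay apart from the start.

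Ribosomal protein messengers took up far more of the granulosa libraries than of the oocyte libraries. In wild type granulosa cells the 56 genes together held 1.10% ± 0.447 (SD, n = 7) of all counts at 4 weeks, 0.953% ± 0.284 (n = 5) at 7 weeks and 1.28% ± 0.264 (n = 12) at 6 months. In wild type oocytes they held 0.0993% ± 0.0273 (n = 12), 0.126% ± 0.0291 (n = 5) and 0.139% ± 0.0331 (n = 11). The lowest granulosa library, at 0.655%, lay above the highest wild type oocyte library, at 0.189%. In bulk libraries fewer cells of a type and less RNA per cell cannot be told apart. Whether the method captured these messengers alike in both cell types was not tested. Rows named as ribosomal protein pseudogenes took 0.1525% to 0.2008% of counts in the granulosa group means and 0.0149% to 0.0207% in those of oocytes. How many reads of such copies were counted on a parent gene was not tested. Nor was it tested how many reads of a parent gene went to copies or were left uncounted for matching several places. Counts of single members, and differences in level between members, are uncertain to that extent.

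**Figure D1:**
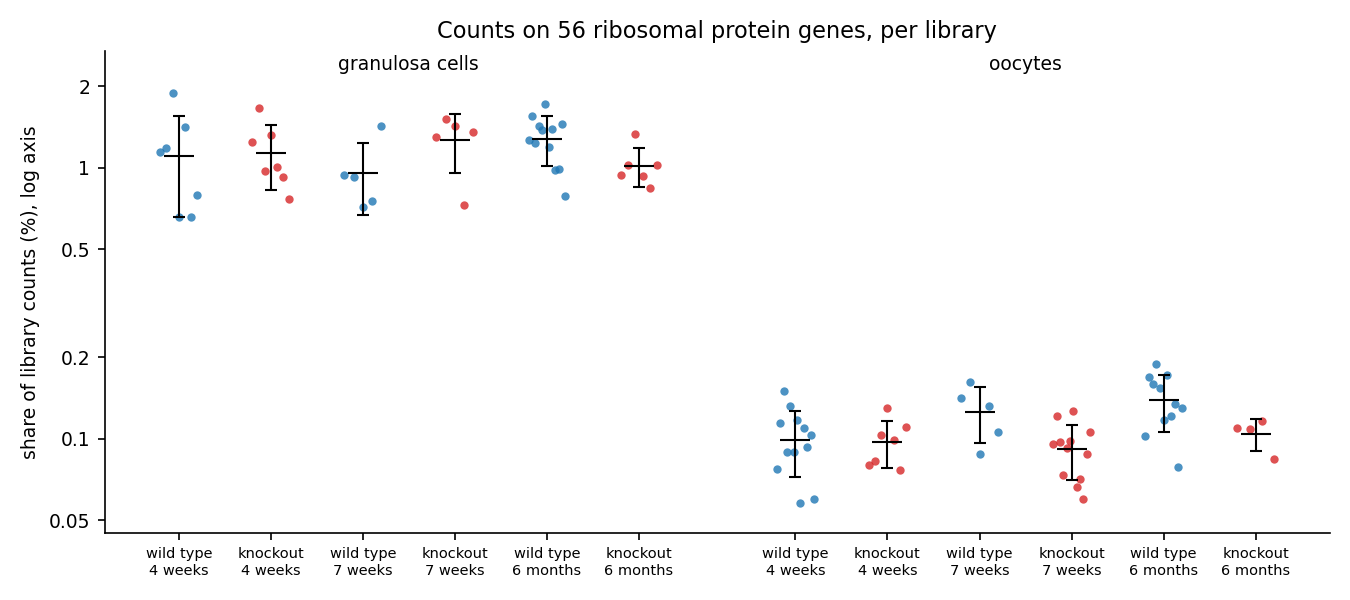
Share of all counts of a library, in percent on a log axis, held by the ribosomal protein genes, for the 12 groups of cell type, age and genotype. Points are libraries and bars are the mean with its SD. The granulosa libraries lie near 1% and the oocyte libraries near 0.1%, and within each cell type the groups overlap.

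Within granulosa cells the members differed widely in counted level, and the part of reads shared with copies in these differences was not tested. Per kilobase of transcript, high levels were those of Rps14 at 1362 CPM, the stalk base Rplp0 at 1161 CPM, Rps3 at 1003 CPM and Rpl32 at 761 CPM, each a mean of the 6 group means. The lowest were Rpl17 at 3.93, Rpl32l at 5.58, Rpl28 at 8.88, Rps6 at 9.42 and Rpl38 at 10.4 CPM per kilobase. Rps6 is the small-subunit protein that S6 kinases phosphorylate. The median over the 55 genes listed in granulosa tables was 71.9 CPM per kilobase.

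Oocytes had another order. Rps27l, a copy of Rps27 that is known as a p53 target, was the highest at 511 CPM per kilobase, followed by Rpl17 at 161, Rpl4 at 93.2, Rps14 at 73.4 and Rplp2 at 57.0. The lowest were Rpl12 at 0.315, Rpl3 at 0.558, Rpl32l at 0.610, Rps6 at 0.657 and Rpl28 at 0.665 CPM per kilobase. Among oocyte tables, Rpl12 and Rpl32l are listed only at 6 months and Rpl3 only at 4 and 7 weeks. Their means cover those ages alone, so their ranks are not on the same ages as the others. The median over the 53 genes listed in oocyte tables was 7.06 CPM per kilobase. Rps6, Rpl28 and Rpl32l were thus among the lowest members in both cell types, while Rpl17 was the lowest in granulosa cells and ranked next to Rps27l in oocytes.

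**Figure D2:**
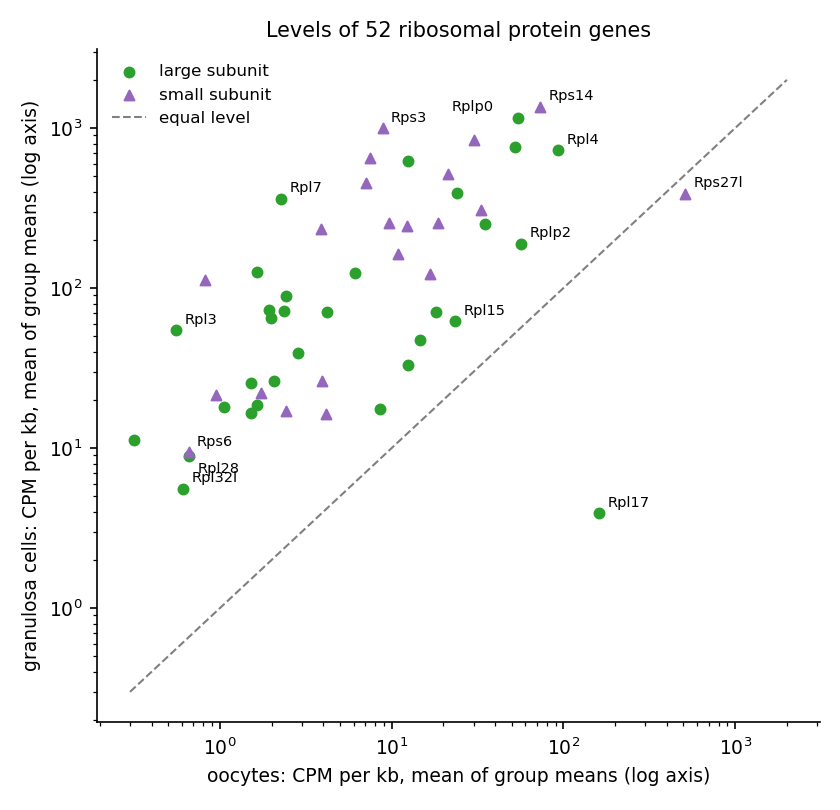
Level of each ribosomal protein gene listed in both cell types, in granulosa cells against oocytes, with the line of equal levels. Values are CPM per kilobase of transcript on log axes, as means of the group means. For oocytes Rpl12 and Rpl32l rest on 6 months only and Rpl3 on 4 and 7 weeks. Nearly all genes lie on the granulosa side of the line, and Rpl17 and Rps27l lie on the oocyte side.

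The comparison of wild type granulosa cells with oocytes asked which of the genes share the difference in the summed counts. Only the 49 members listed in all 6 tables could be tested. All of them passed the filter on low counts, which a gene could pass through its granulosa counts alone, so the number that were higher is given as a description. By edgeR's quasi-likelihood test at an adjusted p under 0.05, 47 members were higher and 2 lower in granulosa cells at 4 weeks (of all genes, 42.6% were higher and 38.3% lower). At 7 weeks 42 were higher and 1 lower (39.5% and 34.5% of all genes), and at 6 months 44 and 2 (43.7% and 39.9%). The median log2 fold change of the members was 3.77, 2.95 and 2.90 at the 3 ages, against 0.16, 0.21 and 0.16 over all genes tested. Groups did not overlap, with granulosa cells above, for 41, 38 and 36 of the 49 (30.9%, 37.2% and 32.0% of all genes).

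Transcript length moved with cell type as well. Over all genes, the log2 fold change of granulosa cells over oocytes fell by 0.301, 0.506 and 0.208 per doubling of transcript length at the 3 ages, and most ribosomal protein messengers are short. With each library's length trend removed, the member medians were 3.00, 1.83 and 2.37, and 45, 35 and 41 members were higher in that fit. Of all 11500 genes tested, 4719, 4232 and 4775 were higher in that fit and 4640, 4303 and 4872 lower. The part of length in the difference was not tested beyond this.

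The stalk proteins recruit elongation factors to the large subunit. Rplp0 had the smallest p of all members at each age. At 4 weeks it had 884, 1138 and 1722 CPM (lowest, median, highest) in granulosa cells against 50.1, 70.0 and 122 CPM in oocytes. At 7 weeks its granulosa libraries held 1551, 1666, 1063, 1174 and 1771 CPM and its oocyte libraries 50.5, 118, 57.0, 133 and 67.8 CPM. No library of one cell type reached the range of the other. The log2 fold changes were 3.57 ± 0.20 (SE; edgeR adjusted p = 2.33e-22), 3.75 ± 0.30 (4.06e-16) and 3.81 ± 0.20 (2.84e-24) at 4 weeks, 7 weeks and 6 months. Rplp1 rose by 4.30, 2.77 and 2.90 on the log2 scale. Rplp2 overlapped between cell types: at 4 weeks it had 24.0 to 330 CPM in granulosa cells and 6.43 to 38.9 CPM in oocytes. Its log2 fold change was 1.79 ± 0.35 at 4 weeks, 0.27 ± 0.47 (edgeR adjusted p = 0.616) at 7 weeks and 1.28 ± 0.32 (edgeR adjusted p = 0.00024) at 6 months. At 7 weeks with the length trend removed it was -1.05 (edgeR adjusted p = 0.0299), the opposite direction.

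Among the large-subunit proteins, Rpl7 showed one of the widest gaps. It had 256, 386 and 481 CPM in granulosa cells at 4 weeks and 0, 1.43 and 15.2 CPM in oocytes, with no overlap, and its log2 fold change was 6.23 ± 0.50 at 4 weeks and 6.61 ± 0.50 at 6 months. Its copy Rpl7l1, a nucleolar paralog, was also higher in granulosa cells, by 4.13 ± 0.35 at 4 weeks. Rpl6 was 5.65 ± 0.36 higher at 4 weeks (103, 142 and 206 CPM against 0.550, 1.19 and 6.06 CPM). Rpl8, which lies near the peptidyl transferase centre, was 5.43 ± 0.33 higher (318, 544 and 1333 CPM against 2.48, 7.83 and 22.7 CPM). Neither gene's groups overlapped. The large-subunit median was 3.52 at 4 weeks and the small-subunit median 3.88.

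Among the small-subunit proteins, Rps4x, the X-linked form of S4, had 176, 277 and 721 CPM in granulosa cells at 4 weeks and 2.44, 4.27 and 13.7 CPM in oocytes. That is a log2 fold change of 5.31 ± 0.31 (edgeR adjusted p = 4.22e-22), and the groups did not overlap. Rps3a1, which sits near the messenger exit of the small subunit, was 4.42 ± 0.28 higher at 4 weeks, with 144, 239 and 528 CPM against 3.33, 7.97 and 22.4 CPM. Rpsa, which is also known as a laminin receptor, had 173, 234 and 1035 CPM against 0.295, 2.22 and 13.0 CPM, a log2 fold change of 5.89 ± 0.45. Rps29 differed less, by 2.51 ± 0.57 at 4 weeks, by 1.52 (edgeR adjusted p = 0.0709) at 7 weeks and by 0.33 (edgeR adjusted p = 0.513) at 6 months.

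Rpl17 went the other way at every age. It had 0, 3.74 and 11.3 CPM in granulosa cells at 4 weeks against 49.3, 165 and 254 CPM in oocytes. At 7 weeks the granulosa libraries held 4.27, 2.94, 0.503, 3.14 and 6.40 CPM and the oocyte libraries 27.2, 134, 149, 108 and 187 CPM. At 6 months the values were 1.21, 3.66 and 5.96 CPM against 99.6, 172 and 382 CPM. No granulosa library reached the lowest oocyte library of its age. Rpl17 lines the exit of the peptide tunnel, and the fitted level in granulosa cells was 61.9, 44.1 and 80.7 times lower at the 3 ages (log2 fold changes -5.95 ± 0.48, -5.46 ± 0.57 and -6.33 ± 0.38; edgeR adjusted p = 1.11e-16, 3.29e-12 and 5.09e-22). Without the length trend the log2 fold changes were -6.51, -6.41 and -6.74. Annotated snoRNAs lie inside Rpl17 on its strand.

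Rps27l was the other gene that was lower in granulosa cells, with a smaller gap and overlapping groups. It had 115, 168 and 310 CPM in granulosa cells at 4 weeks against 91.6, 207 and 577 CPM in oocytes, a log2 fold change of -1.05 ± 0.29 (edgeR adjusted p = 0.000993). At 7 weeks the value was -0.70 ± 0.37 (edgeR adjusted p = 0.0831). At 6 months, with 139, 234 and 371 CPM against 213, 407 and 581 CPM, it was -1.26 ± 0.25 (edgeR adjusted p = 7.45e-06). It was past the test at all 3 ages once the length trend was removed, at -1.94, -1.84 and -1.96. Rps27 itself is listed only in granulosa tables, at 21.2 CPM per kilobase against 389 for Rps27l.

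The Rpl39 pair lines the peptide exit tunnel, and Rpl39l is known for its high level in male germ cells. Rpl39 was 5.50 ± 0.50 higher in granulosa cells at 4 weeks on the log2 scale, with 11.6, 58.5 and 209 CPM against 0, 0.608 and 2.90 CPM. Rpl39l is listed only in oocyte tables, where it had a count in every library. Its oocyte level was 15.9 CPM per kilobase, against 2.43 for Rpl39. In wild type oocytes Rpl39l had 3.55, 10.7 and 19.0 CPM at 4 weeks, 8.32, 10.1 and 17.9 CPM at 7 weeks and 7.40, 13.4 and 34.6 CPM at 6 months. The groups overlapped, so no order of ages can be read from these ranges.

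Wild type oocytes at 6 months had higher levels of many members than at 4 weeks, and the shorter the transcript the larger the difference. By edgeR's quasi-likelihood test 15 of the 44 members tested were higher, or 34.1%, and none lower, where 8.31% of all genes were higher and 7.1% lower. DESeq2 called 17. The median log2 fold change was 0.62 against 0.03 over all genes, and 41 of 44 were above 0. Every member's groups overlapped, as did those of nearly all genes (0.208% lay wholly above and 0.052% wholly below at 6 months). Wild type oocytes had a length slope, the change in log2 CPM of other genes per doubling of transcript length, of -0.2099 on average at 6 months (-0.5360 to 0.0673) and 0.0164 at 4 weeks (-0.0869 to 0.2894). The 22 shorter members, of at most 835 bases, had a median of 0.96 and the 22 longer ones 0.33. Once that trend was removed the median was 0.27 and only Rpl32 passed. Of all 13471 genes tested, 716 were higher and 780 lower in that fit.

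Rpl32, a large-subunit protein, had 26.5, 83.6 and 102 CPM in oocytes at 6 months (lowest, median, highest) against 10.0, 32.6 and 49.7 CPM at 4 weeks. The log2 fold change was 1.38 ± 0.27 (edgeR adjusted p = 0.000243), and with the length trend removed 0.99 ± 0.27 (edgeR adjusted p = 0.0113). Its end overlaps Cand2 on the opposite strand. Rpl34 had 19.3, 29.9 and 54.7 CPM against 7.86, 16.1 and 27.4 CPM (0.98 ± 0.24, edgeR adjusted p = 0.00262). Rpl11, which binds and inhibits Mdm2 when ribosome assembly is disturbed, had 6.44, 11.7 and 14.2 CPM against 2.81, 6.27 and 10.2 CPM (0.98 ± 0.25, edgeR adjusted p = 0.00489). Of the 11 libraries at 6 months, 10 lay above the 4-week median for Rpl32 and all 11 did for Rpl34 and Rpl11, while the ranges overlapped. Without the length trend Rpl34 and Rpl11 were at 0.57 (edgeR adjusted p = 0.124) and 0.61 (edgeR adjusted p = 0.0863).

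Rps26, at the messenger exit of the small subunit, had 4.30, 20.8 and 40.3 CPM at 6 months against 2.44, 6.69 and 21.1 CPM (1.26 ± 0.32, edgeR adjusted p = 0.0037). Rps25, needed by some viral internal ribosome entry sites, had 5.73, 11.6 and 19.4 CPM against 0.888, 5.34 and 14.9 CPM (1.14 ± 0.30, edgeR adjusted p = 0.00571). Rps25 overlaps Trappc4 and Ccdc84, and reads of the genes cannot be told apart without strand. The stalk protein Rplp1 had 5.73, 15.8 and 47.0 CPM against 1.33, 6.96 and 15.3 CPM (1.43 ± 0.37, edgeR adjusted p = 0.00447). The other stalk members did not pass: Rplp0 was at 0.28 (edgeR adjusted p = 0.344) and Rplp2 at 0.40. Rps27l was 0.73 ± 0.22 higher, Rps29 2.12 ± 0.64 and Rpl39 1.49 ± 0.53, and Rpl39 lost its call with the alternative RLE scaling. Rps21, Rpl35a, Rps14, Rpl13 and Rpl21 were also among the 15. Rpl39l was at 0.73 ± 0.27 (edgeR adjusted p = 0.0521), Rpl17 at 0.34 (0.398), Rpsa at 0.95 (0.16), and Rpl22 and Rpl7l1 at -0.05 and -0.40. Without the oocyte libraries that held granulosa markers 12 members were higher.

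**Figure D3:**
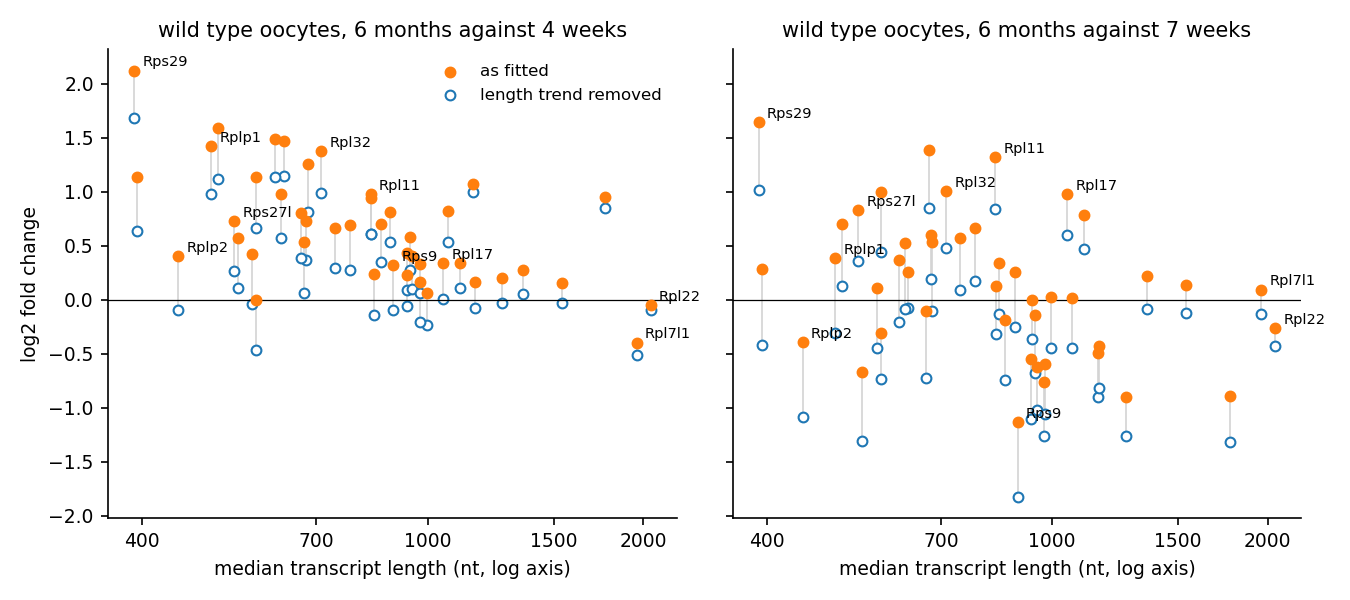
Log2 fold change of each ribosomal protein gene against its transcript length in bases (log axis) for wild type oocytes at 6 months against 4 weeks and against 7 weeks, as fitted (filled points) and with the length trend of each library removed (open points). As fitted, short genes lie higher than long ones, and the open points lie lower and flatter.

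Against 7 weeks, 4 of the 44 members were higher at 6 months in wild type oocytes and none lower by edgeR's quasi-likelihood test, where 13.1% of all genes were higher and 25.7% changed in either direction. The median was 0.13 against 0.07 over all genes. Rpl11 had 4.39, 4.23, 8.32, 4.81 and 4.61 CPM at 7 weeks and 6.44, 11.7 and 14.2 CPM at 6 months, a log2 fold change of 1.32 ± 0.35 (edgeR adjusted p = 0.00389). All 7-week libraries but the third lay below the lowest 6-month library. Rpl17 (0.98 ± 0.34), Rps27l (0.83 ± 0.29) and Rpl32 (1.00 ± 0.37) were the others. Without wild type 7-week library 1, whose length slope of 0.4515 was the highest of the oocyte libraries, only Rpl11 was higher. With the length trend removed none was higher and 5 were lower: Rplp2 (-1.09, edgeR adjusted p = 0.0159), Rps3a1 (-1.05), Rps9 (-1.82), Rps4x (-1.26) and Rpl8 (-1.10). Of all 13471 genes tested, 1448 were higher and 1030 lower in that fit. Which of the fits stands nearer to the RNA content of the cells was not tested.

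From 4 to 7 weeks edgeR called none of the 44 members in wild type oocytes (0.824% of all genes changed in either direction). At an unadjusted p under 0.05 there were 12, and DESeq2 called 3, among them Rps14 and Rps9, all higher at 7 weeks. The share of all genes at an unadjusted p under 0.05 was not computed, here or in the comparisons below. Counts of members at that threshold therefore have no background and cannot be set against the shares of all genes, which use the adjusted p. The median was 0.58, with 37 of 44 above 0. Rpsa had 54.4, 13.0, 4.27, 7.22 and 4.42 CPM at 7 weeks and 0.295, 2.22 and 13.0 CPM at 4 weeks (1.84 ± 0.55, edgeR adjusted p = 0.0624). Rps9 had 125, 42.3, 11.5, 24.1 and 15.6 CPM at 7 weeks (1.46, edgeR adjusted p = 0.0868). Both genes were highest in library 1 and next highest in library 2, which held granulosa markers. Library 2 held 438 CPM of those markers, and the part of either feature in these values was not tested.

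In granulosa cells few of these genes passed the test between wild type ages. From 4 to 7 weeks edgeR called 0 of 55 members and 0% of all genes, DESeq2 called 0 members and 4 had an unadjusted p under 0.05. The member median was -0.25 against -0.03 over all genes. From 7 weeks to 6 months edgeR and DESeq2 again called 0 of 55, with 11 at an unadjusted p under 0.05, where 1.36% of all genes changed in either direction. The median was 0.46 against -0.02 over all genes, and 50 of 55 members were above 0. The SD of library medians within granulosa groups was 0.396.

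From 4 weeks to 6 months 3 of 55 granulosa members were higher and none lower by edgeR's quasi-likelihood test, or 5.45%, where 3.17% of all genes were higher and 4.82% lower. Rpl7 had 294, 526.4 and 690 CPM at 6 months against 256, 386 and 481 CPM at 4 weeks (0.60 ± 0.16, edgeR adjusted p = 0.0135). Rplp0 had 1373, 1801 and 2302 CPM against 884, 1138 and 1722 CPM (0.52 ± 0.16, edgeR adjusted p = 0.0313). The age groups overlapped for both genes. With the length trend removed 1 member was higher and neither Rpl7 nor Rplp0 passed. Of all 14307 genes tested, 372 were higher and 651 lower in that fit. Without the granulosa libraries that held oocyte markers 2 members were higher, Rpl7 among them and Rplp0 not. DESeq2 called Rps6 as well, which had an edgeR adjusted p of 0.0523 at 0.86 ± 0.29.

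The comparison of knockout with wild type asked how loss of Esr2 bears on these messengers. At 4 weeks edgeR called 0 of 54 members in granulosa cells, where 2.33% of all genes changed in either direction, 0.979% higher and 1.35% lower. DESeq2 also called 0, and 2 had an unadjusted p under 0.05. The shares of counts were 1.13% ± 0.302 (SD, n = 7) in knockout and 1.10% ± 0.447 (n = 7) in wild type. The median log2 fold change was -0.03, with 25 of 54 above 0.

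At 7 weeks most granulosa members had a log2 fold change above 0 for knockout over wild type, and none passed the test. EdgeR called 0 of 54 (0.8% of all genes changed, 0.45% higher and 0.35% lower), with 9 at an unadjusted p under 0.05, and DESeq2 called 1, Rpsa. The median was 0.31, with 47 of 54 above 0. Rpsa had 959, 907, 839, 245 and 514 CPM in knockout libraries 1 to 5 and 428, 258, 235, 202 and 384 CPM in wild type (1.13 ± 0.34, edgeR adjusted p = 0.125). Rplp1 had 346, 448, 383, 82.5 and 230 CPM against 154, 104, 77.2, 91.9 and 273 CPM (1.02, edgeR adjusted p = 0.22). Rps3a1 had 329, 345, 381, 196 and 298 CPM against 194, 163, 166, 142 and 290 CPM (0.62 ± 0.24, edgeR adjusted p = 0.204). For all 3 genes knockout library 4 was the low one and lay inside the wild type range, while knockout libraries 1, 2 and 3 lay above every wild type library. Rplp0 was at 0.02. Without knockout library 4 edgeR called Rpsa alone.

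Other features moved with genotype at 7 weeks in granulosa cells. The length slopes were 0.0599 to 0.2239 in knockout and -0.1738 to 0.0382 in wild type libraries, which do not overlap, and over all genes the fold change rose by 0.182 per doubling of length. With the trend removed the member median was 0.57 and edgeR still called 0 members. Of all 12002 genes tested, 49 were higher and 37 lower in that fit. Oocyte markers summed to 16.6 to 75.6 CPM in knockout and 1.42 to 269.8 CPM in wild type libraries, and luteal markers to 3380 to 7922 CPM and 5591 to 14441 CPM. The 9 surface epithelium markers, all of which averaged at least 1 CPM in granulosa libraries, separated the genotypes: they summed to 140.0 to 447 CPM in knockout and 594 to 1929 CPM in wild type libraries. Theca and stroma markers summed to 12.6 to 92.7 CPM and 14.2 to 189 CPM, immune markers to 280.1 to 3422 CPM and 356 to 3064 CPM, and erythroid markers to 12.6 to 476 CPM and 51.3 to 233 CPM, with overlap. The part of these features in the values was not tested.

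At 6 months most granulosa members had a log2 fold change below 0 for knockout over wild type, and 1 passed the test. EdgeR called 1 of 54 lower and none higher, or 1.85%, where 6.05% of all genes were lower and 6.59% higher. The median was -0.29, and 38 of 54 were below 0. The gene was Rps2, a small-subunit protein near the messenger entry, with 165, 202 and 287 CPM in knockout and 254, 366 and 545 CPM in wild type libraries. Its fitted level was 1.58 times lower in knockout (log2 -0.66 ± 0.17, edgeR adjusted p = 0.0129), and the groups overlapped. Rps2 overlaps the antisense gene Snhg9. Rps3a1 had 152, 178 and 248 CPM against 174, 265 and 448 CPM (-0.47 ± 0.17, edgeR adjusted p = 0.0674). Rpsa had a median of 435 CPM in wild type, with 216 and 746 CPM as the lowest and highest, and a log2 fold change of -0.37 ± 0.20 (edgeR adjusted p = 0.215). Rpl39 was at -0.89 ± 0.31 (0.0591), Rplp1 at -0.66 (0.103), Rplp0 at 0.18 (0.387), Rps6 at 0.56 (0.187) and Rpl7l1 at 0.39 ± 0.17 (0.111).

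The number of granulosa members lower at 6 months depended on the fit. DESeq2 called 3, Rpl39, Rps2 and Rps3a1. With the length trend removed 8 of the 54 were lower: these 3 and Rpl32, Rpl34, Rpl35a, Rps14 and Rps26. In that fit 690 of all 12505 genes tested were higher and 698 lower. Without libraries under 1000000 counts 5 members were lower, and with the replicate number as a block 0 were. The length slopes averaged -0.1504 in knockout (-0.2610 to -0.0222) and -0.0508 in wild type (-0.2732 to 0.1259), so they overlapped. Marker sums differed in their medians and overlapped as well. Erythroid markers summed to 2.58, 22.7 and 163 CPM (lowest, median, highest) in knockout and 30.1, 233 and 876 CPM in wild type libraries. Theca and stroma markers summed to 6.45, 74.4 and 342 CPM and 9.33, 20.04 and 51.0 CPM, and immune markers to 205, 565 and 1021 CPM and 217, 875 and 4410 CPM. Oocyte markers summed to 19.5, 22.5 and 41.7 CPM and 8.30, 12.6 and 33.9 CPM. Their part in the result was not tested.

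**Figure D4:**
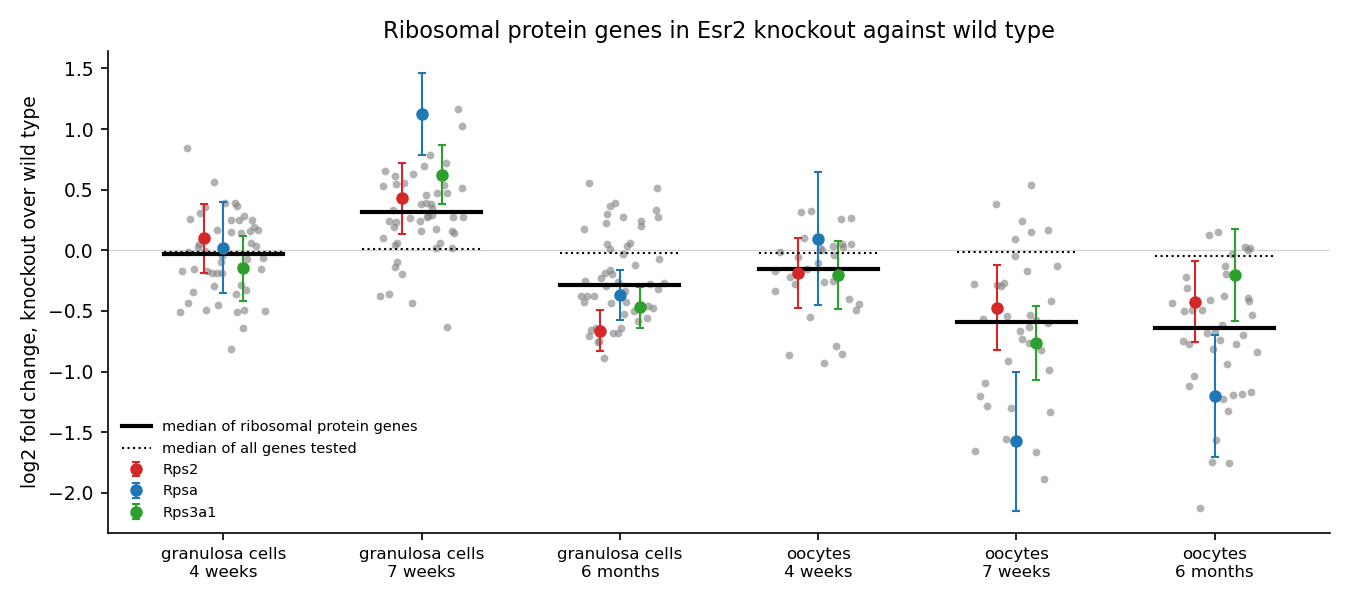
Log2 fold change of knockout over wild type for each ribosomal protein gene tested, in granulosa cells and oocytes at 4 weeks, 7 weeks and 6 months. Points are genes, bars are medians, and Rps2, Rpsa and Rps3a1 carry their SE. In granulosa cells the points lie mostly above 0 at 7 weeks and mostly below 0 at 6 months, and in oocytes mostly below 0 at each age.

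In oocytes most members had a log2 fold change below 0 for knockout over wild type at each age, and edgeR called none. At 4 weeks 21 of 33 members tested were below 0, with a median of -0.15, 1 at an unadjusted p under 0.05 (Rps4x, -0.93) and 0 by DESeq2 (0.00924% of all genes changed by edgeR). At 7 weeks 32 of 38 were below 0, with a median of -0.59 and 14 at an unadjusted p under 0.05 (0.154% of all genes changed, 0.0171% higher and 0.137% lower). The 14 and the shares of all genes rest on unlike thresholds and cannot be compared. DESeq2 called 1 member at 7 weeks, Rps3. At 6 months 39 of 44 were below 0, with a median of -0.64, 11 at an unadjusted p under 0.05 and 0 by DESeq2 (0.00818% of all genes changed). No member's groups failed to overlap at any age, and few of all genes did. At 4 weeks, 7 weeks and 6 months 0%, 0.0512% and 0.0164% of all genes lay wholly above wild type in knockout. The shares wholly below were 0.00924%, 0.12% and 0.0654%.

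Rps3, a small-subunit protein that also acts in DNA repair, had 1.11, 4.41 and 8.76 CPM in knockout oocytes at 7 weeks and 17.995, 46.6, 3.20, 15.8 and 10.2 CPM in wild type libraries 1 to 5 (-1.89 ± 0.46, edgeR adjusted p = 0.108). Only wild type library 3 lay inside the knockout range, and without it edgeR called Rps3. Wild type library 2, the highest, held granulosa markers. Rps14 had 48.2, 32.4, 24.1 and 29.9 CPM in knockout oocytes at 6 months and 27.4, 66.9 and 92.7 CPM in wild type (-0.84 ± 0.27, edgeR adjusted p = 0.999). Rpl39l had 8.60, 9.42, 9.77 and 12.9 CPM against 7.40, 13.4 and 34.6 CPM (-0.61). The knockout libraries lay within or below the lower part of the wild type range for both genes. At 4 and 7 weeks Rpl39l was at -0.55 and -0.54. Rpl17 did not follow the others, at 0.54 (edgeR adjusted p = 0.374) at 7 weeks and 0.00 at 6 months.

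Whether the knockout effect differed between ages was tested as a difference of differences. In granulosa cells 3 of 55 members had a lower effect at 6 months than at 7 weeks by edgeR and none a higher one, or 5.45%, where 5.77% of all genes had a lower and 4.66% a higher one. They were Rps3a1 (-1.10 ± 0.32, edgeR adjusted p = 0.0289), Rpsa (-1.49 ± 0.48, edgeR adjusted p = 0.0408) and Rps2 (-1.09 ± 0.37, edgeR adjusted p = 0.0483). At 7 weeks the knockout effect was 0.62 for Rps3a1, 1.13 for Rpsa and 0.43 ± 0.29 (edgeR adjusted p = 0.428) for Rps2, and none of these passed. At 6 months it was -0.47, -0.37 and -0.66, of which that of Rps2 passed. Rplp1 was at -1.67 (edgeR adjusted p = 0.0563). The median was -0.60, with 41 of 55 below 0. The calls did not hold without the wild type libraries that held oocyte markers (0), nor without wild type library 2 or 4 or knockout library 2 or 3 at 7 weeks (0 each). The former fit kept only wild type libraries 1 and 2 at 7 weeks, so its loss of calls cannot be told apart from having fewer libraries. Without wild type library 5 there were 14, and without knockout library 4 there were 9. Without wild type library 3 or knockout library 1 there was 1. RLE scaling ended the call of Rps2.

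The other differences of knockout effects gave no calls by edgeR or DESeq2. In granulosa cells the median was 0.33 for 7 weeks against 4 weeks (6 at an unadjusted p under 0.05, 0.00699% of all genes called) and -0.24 for 6 months against 4 weeks (4 and 0.657%). In oocytes it was -0.44 for 7 weeks against 4 weeks (6 at an unadjusted p under 0.05), -0.40 for 6 months against 4 weeks (2) and 0.03 for 6 months against 7 weeks (0), and edgeR called 0% of all genes in each.

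Across libraries of a group the members moved together, more so in granulosa cells. With group means subtracted, each gene's level was correlated with the median of the other members over the 42 granulosa libraries. The median of these r values was 0.768 over 55 genes, and 52 were above 0. Rpl32 (0.961), Rps14 (0.952) and Rpl34 (0.951) followed the others most closely, and Rpl7l1 (-0.238), Rps6 (-0.175) and Rpl10 (-0.108) did not follow them. Over the 51 oocyte libraries the median was 0.482 over 50 genes, with 45 above 0. Rps14 (0.887), Rpl32 (0.866) and Rps9 (0.825) were highest, and Rpl17 (-0.393), Rpl15 (-0.251) and Rpl10 (-0.149) lowest. The median deviation of the members from their group's mean ran from -0.89 in wild type library 12 at 6 months to 0.71 in wild type library 5 at 7 weeks in granulosa cells. In oocytes it ran from -0.76 in wild type library 10 at 6 months to 0.60 in wild type library 5 at 4 weeks. These values share the libraries, their depth and their length slopes, and are given as a description. Other genes were not measured in this way, so the values are not read as particular to the members. Levels of the members were lower in oocytes, and the part of this in the lower r values was not tested. The SD of log2 levels within groups ran from 0.225 for Rpl4 to 0.966 for Rps21 in granulosa cells. In oocytes it ran from 0.271 for Rpl32l, which is listed there only at 6 months, to 1.05 for Rpl35.

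**Figure D5:**
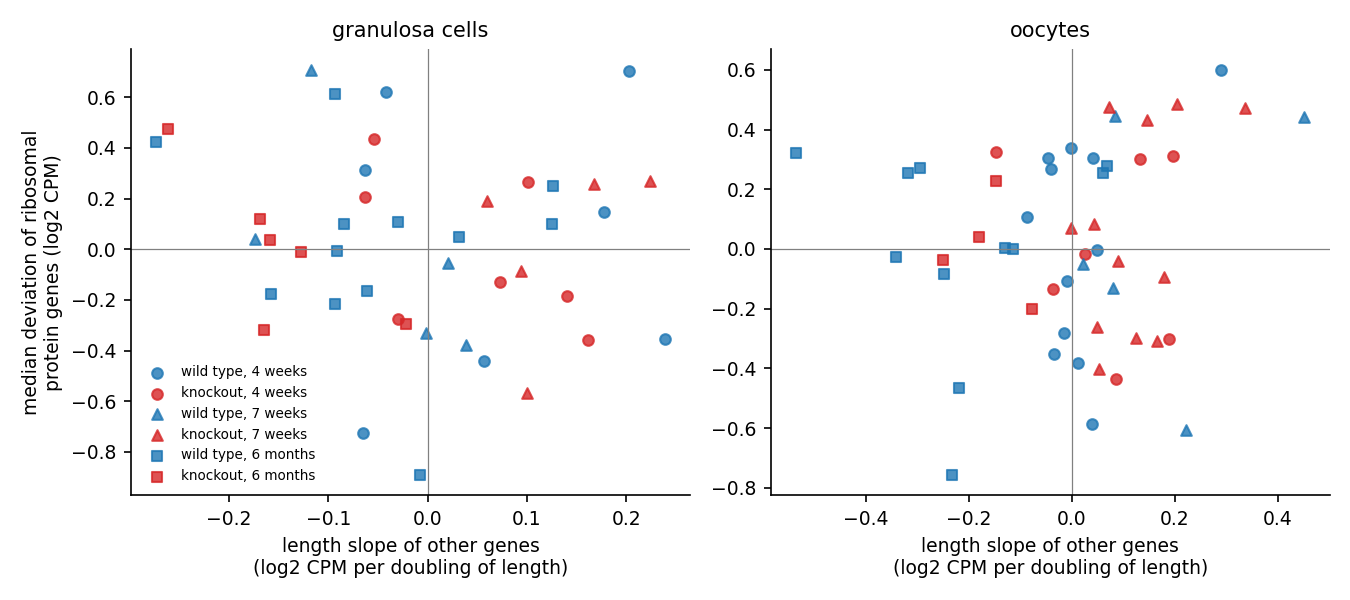
Median deviation of the ribosomal protein genes of each library from its group's mean (log2) against that library's length slope over other genes (log2 CPM per doubling of transcript length), for granulosa cells and oocytes. Points are libraries, with colour for genotype and shape for age. Libraries with high and low medians lie on both sides of a slope of 0 in both cell types, and the 6-month oocytes lie mostly to the left of the 7-week ones.

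Other genes of the translation machinery were read from lists, by edgeR's adjusted p over all genes. In wild type granulosa cells against oocytes at 4 weeks, 6 of 7 elongation factors were higher and 1 lower (42.6% and 38.3% of all genes), among them Eef1a1 (5.20 ± 0.28), which brings aminoacyl-tRNA to the ribosome, and Eef2 (4.97 ± 0.31), which moves it along the messenger. All 4 ribosomal proteins with other symbols were higher, including Rack1 (1.497). Of 28 initiation factors 17 were higher and 6 lower. Ribosome biogenesis factors went mostly the other way, with 16 of 46 higher and 25 lower and a median of -0.73. Dkc1 (-2.85), the pseudouridine synthase of snoRNPs, and Rrp1b (-3.24) were lower, while Nhp2 (4.07), which works with Dkc1, was higher. All 7 snoRNA host genes tested, such as Snhg5 (5.24), were higher. Of 19 TOP regulators 11 were higher and 6 lower, with Larp1 at 4.63 and Eif4ebp1 at 6.47. Mitochondrial ribosomal proteins counted 11 higher and 5 lower of 16, and RNA polymerase I factors 7 and 2 of 13.

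In knockout granulosa cells at 6 months the host genes of snoRNAs, which are also TOP messengers in part, had 3 of 10 lower and none higher (6.05% of all genes were lower and 6.59% higher): Snhg5 (-1.03, edgeR adjusted p = 0.00458), Snhg1 (-1.07) and Zfas1 (-0.93). Snhg5 was lower at 4 weeks too (-1.08 ± 0.22, edgeR adjusted p = 0.00812). Of 28 initiation factors 6 were lower and none higher, with Eif2s2 (-0.63), Eif3f (-0.69) and Eif3c (-0.47) as examples. Of 47 biogenesis factors 5 were higher, including Dkc1 (0.70), and 2 lower, including Utp14a (-0.75). The elongation factor Eif5a was higher (0.63), and Cnbp (0.62) and Myc (0.87) were higher among 22 TOP regulators. At 7 weeks in granulosa cells edgeR called none on these lists. In knockout oocytes it called 1 gene on them in all, Eef2 at 7 weeks, with 28.4 ± 5.52 CPM (SD, n = 12) against 65.4 ± 29.0 CPM (SD, n = 5) and a log2 fold change of -1.08 ± 0.21 (edgeR adjusted p = 0.034). For the difference of the granulosa knockout effect between 6 months and 7 weeks, 3 of 10 snoRNA hosts, 4 of 28 initiation factors, 4 of 47 biogenesis factors, 2 of 22 TOP regulators and 1 of 14 RNA polymerase I factors were lower, among them Snhg1 (-2.21), Zfas1 (-2.06) and Eif3a (-1.59). An elongation factor, a TOP regulator and a mitochondrial ribosomal protein were higher, 1 of each list (5.77% of all genes were lower and 4.66% higher). These lists were not recomputed without the libraries that held oocyte markers, where no ribosomal protein gene was called.

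With age in wild type oocytes the same lists were mixed. From 4 weeks to 6 months 4 of 28 initiation factors were higher and 3 lower (8.31% and 7.1% of all genes), with Eif3k at 0.77 and Eif4g1 at -0.88. Of 45 biogenesis factors 5 were higher, including Nop10 (1.66), a short snoRNP protein, and Npm1 (0.49), and 1 was lower. The snoRNA hosts Gas5 (0.98) and Snhg5 (1.27) were higher, 2 of the 5 tested. Of 16 mitochondrial ribosomal proteins 3 were higher, among them Mrps31 (1.65), and 3 of 13 RNA polymerase I factors. Of 19 TOP regulators 1 was higher and 4 were lower. In wild type granulosa cells from 4 weeks to 6 months 3 of 28 initiation factors were higher, Eif3i, Eif4e and Eif3k, as were 2 of 17 mitochondrial ribosomal proteins and 1 of 22 TOP regulators, and 1 of 47 biogenesis factors was lower (3.17% of all genes were higher and 4.82% lower).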

How the data were processed

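RNA was lysed in RLT buffer, precipitated with ethanol and made into Smart-seq2 libraries, per the labels' protocols. This method does not mark strand. The submitters' processing notes name STAR, Partek, DESeq2 and the mm10 build, without versions. The authors deposited 1 table of estimated counts, which need not be whole, for each cell type and age. Their normalised tables were not used here.

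The estimated counts were rounded. Levels are CPM of the library total, or CPM per kilobase of the median transcript length of each gene in GENCODE. Fits used R 4.3.3 and edgeR 4.0.16: filterByExpr, TMM scaling and the quasi-likelihood test with Benjamini-Hochberg adjustment over all genes tested, at 0.05. Knockout was compared with wild type within a table. Ages, cell types and differences of knockout effects were fitted on joined tables, over genes listed in all of them. The fit was tested on simulated data. The alternatives were DESeq2 1.42.0, RLE scaling, no filter, a length trend removed from each library (a spline with 4 degrees of freedom over other genes), libraries under 1000000 counts left out, a replicate block and single libraries left out in groups of at most 5. Leaving out libraries with markers of the other cell type, and the paired libraries without a block, were added after seeing the data. Library length slopes used 10905 granulosa and 8692 oocyte genes with a mean of at least 5 CPM, with a pseudocount of 1 CPM.

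The members, gene lists and tests were chosen with earlier results of these data known. In each comparison the text names up to 6 members in each direction past the test, taken by smallest p, the stalk proteins, pairs of copies, Rps6, Rpsa, Rps29 and Rpl38, the 5 highest and lowest levels per kilobase, and up to 3 genes per other list. Other members named with values were chosen after their values were seen. Every same-numbered pair of wild type and knockout libraries correlated above 0.1 in its deviations only in 7-week oocytes (0.543, 0.118, 0.154 and 0.243), where the blocked fit also called 0 members. In 7-week granulosa cells 4 pairs were at 0.256, 0.141, 0.234 and 0.434 and 1 at -0.197, and each other comparison also had pairs below 0. One knockout oocyte column at 7 weeks, whose name joins 2 numbers, was used as an unnumbered library. 1 of these numbers also has a column of its own in that group, so these columns may not be independent. Some members and listed genes that these rules would name are not reported here.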

Additional observations from a re-analysis of the deposited data

Results flagged for a closer look

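The share of counts held by the ribosomal protein genes in knockout granulosa library 4 at 7 weeks, 0.7262%, lay far below the other 4 libraries of its group. It was found among 16 tests of a highest or lowest library, of the share and of the length slope in each of 8 groups. Chance flags about 1 in 20 tests. The knockout effect in granulosa cells differed between 6 months and 7 weeks for Rps3a1 (-1.10 on the log2 scale), Rps2 (-1.09) and Rpsa (-1.49) by edgeR's test of the difference. These 3 are 5.45% of the members tested, against 5.77% of all genes with a lower effect at 6 months. Without the 3 wild type 7-week libraries that held oocyte markers and the 4-week one, none of these passed. That fit kept only wild type libraries 1 and 2 at 7 weeks, and the part of fewer libraries in this was not tested.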

How the results depend on the processing

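Of the recomputed counts of members called, 181 stayed within 1.5 times, 30 did not and 1 changed direction. A count of 0 that stayed 0 was taken as within 1.5 times, and the main count was 0 in most comparisons. The tally therefore says little about the comparisons with calls. Of the medians 207 moved by less than the spread between libraries and 5 by more. DESeq2 gave 1 member for knockout granulosa cells at 7 weeks, 3 at 6 months, 1 for knockout oocytes at 7 weeks, 5 for the granulosa knockout effect at 6 months against 7 weeks and 3 for wild type oocytes at 7 weeks against 4 weeks. With the length trend removed the counts were 8 for knockout granulosa cells at 6 months, 12 for that difference of effects, 1 for wild type granulosa cells and 1 for wild type oocytes at 6 months against 4 weeks, and 2 for wild type oocytes at 7 weeks against 4 weeks. For the difference of effects 229 of all 14307 genes tested were higher and 520 lower in that fit. For wild type oocytes at 7 weeks against 4 weeks 92 of all 13471 were higher and 459 lower. For wild type oocytes at 6 months against 7 weeks that fit gave 5 lower members in place of 4 higher ones. Without libraries under 1000000 counts there were 5 for knockout granulosa cells at 6 months and 1 for the difference of effects. Without libraries that held the other cell type's markers the latter was 0, with only wild type libraries 1 and 2 left at 7 weeks. Leaving out single libraries gave 0 to 1 for knockout granulosa cells and for knockout oocytes at 7 weeks, 0 to 14 for the difference of effects, 0 to 1 for wild type oocytes at 7 weeks against 4 weeks and 1 to 3 at 6 months against 7 weeks. The cause of these changes was not tested. With the replicate block, knockout granulosa cells at 6 months gave 0 members where the same libraries without the block gave 6, and no other call changed with the block. The labels do not say what libraries with the same number share, in 7-week oocytes or elsewhere. RLE scaling moved the median of all genes by 0.277, 0.252 and 0.181 for granulosa cells against oocytes at the 3 ages, and by less than 0.1 elsewhere. Between 42 and 52 members had a count in an oocyte library and 54 or 55 in a granulosa library, and low members rest on few counts.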
